A study of Mus musculus with 46 samples.

Results

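The 10 genes H2-Aa, H2-Ab1, H2-Eb1, H2-DMa, H2-DMb1, H2-Oa, H2-Ob, Cd74, Ciita and Cd86 serve the presentation of peptides on MHC class II molecules. They were taken by gene symbol from 4 deposited tables of mouse microglia, the resident macrophages of the brain. All 10 were rows of every table, out of 24824 gene symbols over the 4 tables. In the results, microglia without Dicer held less H2-Ob in all 6 settings examined, with 3 of those differences called. Cd74 was higher after lipopolysaccharide (LPS) in total brain, and most of the 10 genes were higher in adult than in newborn control microglia.

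MHC class II molecules are pairs of an alpha and a beta chain that carry peptides from endosomes to the cell surface, where CD4+ T cells read them. H2-Aa and H2-Ab1 encode the pair I-A, and H2-Eb1 the beta chain of I-E. Cd74 is the invariant chain, which fills the groove of a new class II molecule and escorts it to the endosome. There H2-DM, made of H2-DMa and H2-DMb1, exchanges the invariant chain remnant for peptide, and H2-DO, made of H2-Oa and H2-Ob, inhibits H2-DM. Ciita is the transactivator that class II promoters depend on, and Cd86 is the co-stimulatory ligand of Cd28 on T cells. Resting microglia are known for low class II levels, while border macrophages, dendritic cells and B cells carry more.

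Class II promoters share an X box, read by the RFX complex, and downstream of it a Y box, read by NF-Y. Promoter windows from RefSeq (GRCm38.p6) existed for 6 of the 10 genes, in 7 entries. Those of the genes other than H2-DMa are shown because these boxes define the class II family to which the genes belong. The X core was searched as AGNAAC followed after any 3 bases by TG, and the Y core as ATTGG, on both strands, in the 250 bases before each start. Each line gives the last 110 bases before the start, 5′ to 3′ on the gene's strand, with these letters in capitals.
H2-Ob (chr17:34238795-34238904, plus strand): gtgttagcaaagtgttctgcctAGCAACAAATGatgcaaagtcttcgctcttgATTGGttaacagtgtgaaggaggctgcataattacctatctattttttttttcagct
H2-DMb1 (chr17:34153081-34153190, plus strand): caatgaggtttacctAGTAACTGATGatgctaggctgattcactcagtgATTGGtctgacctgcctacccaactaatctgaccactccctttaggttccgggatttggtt
H2-Eb1 (chr17:34305757-34305866, plus strand): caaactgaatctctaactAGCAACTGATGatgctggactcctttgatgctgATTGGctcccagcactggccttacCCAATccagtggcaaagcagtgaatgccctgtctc
H2-Aa (chr17:34287824-34287933, minus strand): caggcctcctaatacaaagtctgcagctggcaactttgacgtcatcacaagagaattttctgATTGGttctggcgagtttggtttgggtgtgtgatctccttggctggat
H2-Oa (chr17:34092269-34092378, plus strand): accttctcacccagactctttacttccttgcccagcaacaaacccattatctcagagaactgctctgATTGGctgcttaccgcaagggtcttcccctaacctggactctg

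H2-Eb1, H2-DMb1 and H2-Ob held an X core followed by a Y core, with 22, 23 and 20 bases between them. In H2-Ob the X core began 88 and the Y core 57 bases before the start. H2-Aa and H2-Oa matched the Y core only. H2-DMa, whose entries are not printed, had no X core in either of them. In 1 entry a Y core began 198 bases before the start, and the other entry held neither core. Of all 32851 promoter windows, 3.43% held the X core, 33.8% the Y core and 1.14% both, while an X core followed by a Y core within 30 bases stood in 29, or 0.0883%. A match is a description of letters, and no match says only that these letters are not in this window. Whether these letters go with the measurements was not tested. The likeness within groups described below cannot decide it. H2-Eb1 and H2-Aa are part of the mean used there, while H2-DMb1 and H2-Ob are not.

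The study measured RNA by bulk sequencing of sorted microglia in 46 libraries, with each table scaled separately, so no test was made between tables. Microglia were sorted as CD45int CD11b+ F4/80+ Ly6C- Ly6G- cells, and at embryonic day 14 (E14) as CD45+ CD11b+ F4/80hi Ly6C- Ly6G- cells. The adult table held 4 control and 3 Dicer-deficient libraries at steady state. The total brain table had 3 controls at steady state and 4 at 6 h after LPS (1 mg/kg, into the peritoneum), and 3 and 4 libraries without Dicer in the same states. The hippocampus table held 2, 2, 3 and 2 libraries in that order. In these tables the mice were 10 to 12 weeks old, the controls were Cx3cr1CreER:Dicer+/- and the Dicer-deficient mice Cx3cr1CreER:Dicerfl/-. Both genotypes thus carried the inducible Cre, driven by a gene that microglia and other brain macrophages express, and the controls kept 1 copy of Dicer. The labels used here do not state tamoxifen treatment, and the steady-state labels of total brain also name PBS. The developmental table had control Dicerfl/fl microglia without Cre at E14 (4 libraries), at birth (P0, 5 libraries) and from adults of 6 to 8 weeks (5 libraries). It also had 2 newborn Cx3cr1Cre:Dicerfl/fl libraries, which differ from their controls in the Cre as well as in Dicer. Whether every library had its own animal is not said in the labels used here, so p-values measure only the spread between libraries.

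Depth, recovered from the values, was 898451 to 4573063 reads per library. Dicer1 overlapped between the genotypes in every setting and so did not report the deletion. In the adult table its normalized count was 117 to 151 in Dicer-deficient and 97.6 to 153 in control libraries. At steady state it was 74.2 to 107.6 against 100.9 to 132.1 in total brain and 18 to 60.8 against 43 and 92.6 in the hippocampus. After LPS it was 75.7 to 154.6 against 83.8 to 119.7, and 80.5 and 93.5 against 60.4 and 110.4. At birth it was 85.4 and 195 against 57.8 to 88.7. Defining markers of other class II cells were low, with Flt3 at most 6.2, Xcr1 at most 10.7, Clec9a at most 0.95, Cd79a at most 12 and Ms4a1 at most 1.02 in any library. The summed level of 10 dendritic cell markers was 109 to 3254. Its largest part in the adult table was Fscn1 (up to 2836), which was at 9.36 and 15.6 in the newborn Dicer-deficient libraries. The summed B cell markers were 0 to 282, and Cd22 reached 282 in the adult table and 2.53 to 9.21 at E14. Border macrophage markers (10 genes, among them Mrc1 and Cd163) and markers of monocytes and neutrophils (12 genes) varied over the groups. Some libraries stood apart. In control library 33 of total brain after LPS, 10 microglia markers summed to 80948, against 39702 to 47992 in the 3 other control libraries after LPS and 84784 to 88624 at steady state. Hippocampal control library 1 at steady state had Cx3cr1 at 688, against 7139 in library 2, and in the adult developmental controls Cx3cr1 ran from 490.4 to 8687. Newborn Dicer-deficient library 1 had Cx3cr1 at 647, against 3129 in library 2 and 4244 to 5801 in their 3 controls. In bulk RNA, fewer cells of a type and less RNA per cell cannot be told apart.

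Levels below are normalized read counts, given per library. Changes are log2 fold changes ± standard error from limma on log2(count + 1), which understates changes of low genes. A gene is called when its Benjamini-Hochberg adjusted p over all tested genes was under 0.05.

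**Figure D1:**
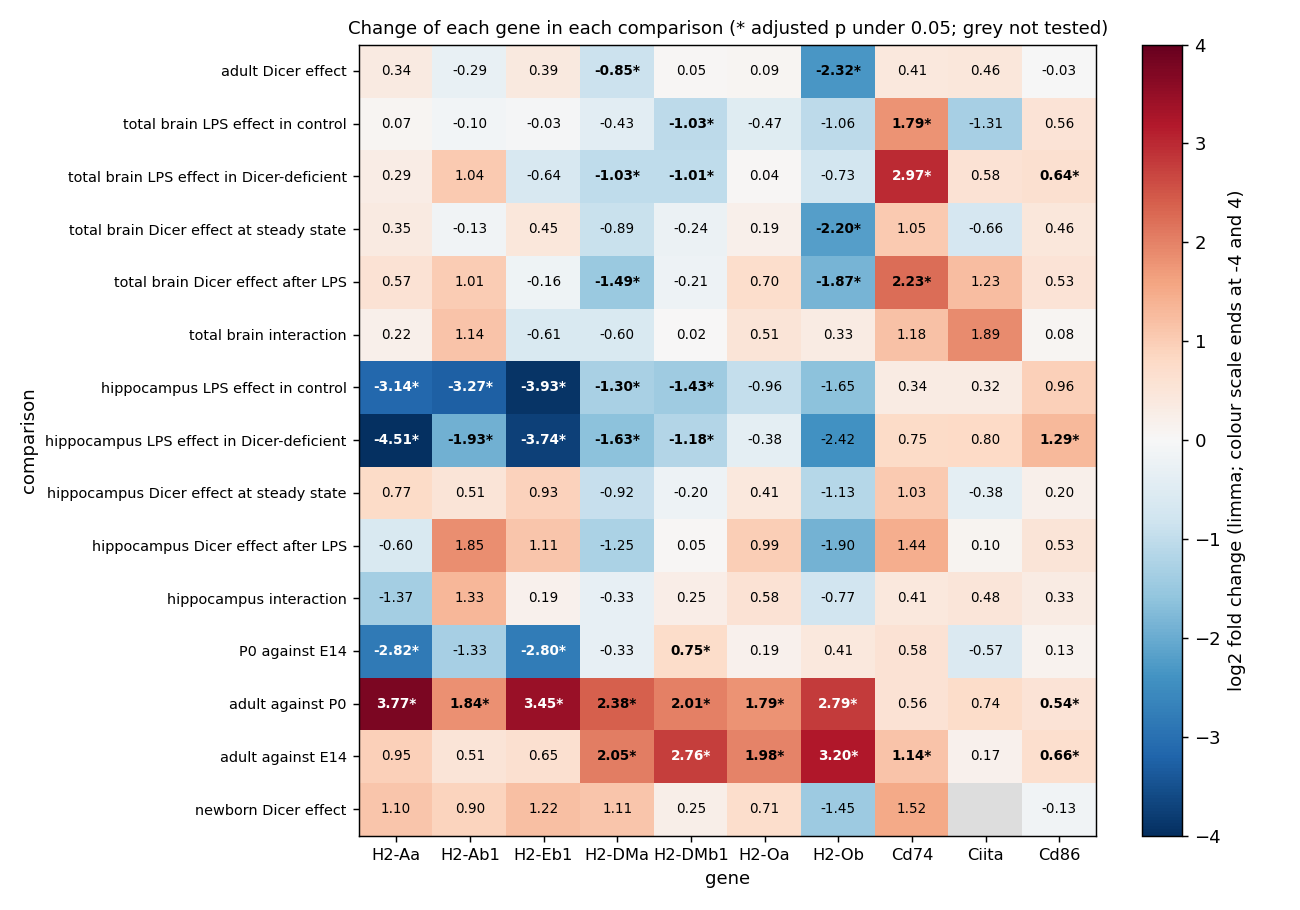
Log2 fold change of each of the 10 genes (columns) in each of the 15 comparisons (rows), from limma, with an asterisk where the adjusted p was under 0.05. H2-Ob was below 0 in all 6 Dicer comparisons (-1.13 to -2.32), and the adult against P0 row was above 0 for all 10 genes (0.54 to 3.77).

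H2-Ob, the beta chain of the inhibitor H2-DO, was lower in Dicer-deficient microglia. In the adult table it was at 80.3, 57.9 and 83.4 in the 3 Dicer-deficient libraries and at 460.3, 375, 392.04 and 272 in the 4 controls. The groups did not overlap, and H2-Ob fell by 2.32 ± 0.26 (limma, adjusted p = 4.43e-05). H2-Ob and H2-DMa were the 2 of 10 genes called in the adult comparison, both lower, where 2% of 11045 tested genes were called lower and 3.15% higher, and 6.68% were lower with no overlap. Without any 1 of the 7 libraries, H2-Ob stayed called with a log2 fold change between -2.47 and -2.16.

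Total brain repeated the difference at steady state and after LPS. At steady state H2-Ob stood at 22.2, 41.5 and 17.1 without Dicer and at 106, 130.4 and 123 in controls. The groups did not overlap, which held for 13.7% of genes in this direction, and the change was -2.20 ± 0.53 (limma, adjusted p = 0.0376). It was the 1 call among the 10 genes, with 1.38% of all genes called lower and 0.797% higher. It was lost in 5 of 6 refits that left out 1 library. After LPS it stood at 31.5, 11, 7.1 and 18.6 without Dicer and at 40.2, 40.6, 41.9 and 150.5 in controls. The groups did not overlap, as for 8.71% of genes in this direction, and the change was -1.87 ± 0.46 (limma, adjusted p = 0.0159). The call was lost without Dicer-deficient library 36 or 37. Without control library 33, whose 150.5 lies far above its group, it was -1.41 and still called (limma). LPS itself gave H2-Ob changes of -1.06 ± 0.49 in control and -0.73 ± 0.49 in Dicer-deficient microglia, neither called (limma, adjusted p = 0.167 and 0.315). Without library 33 the control change was -1.52 (limma, adjusted p = 0.0137). In the hippocampus the LPS changes were -1.65 ± 0.76 in controls and -2.42 ± 0.70 without Dicer (limma, adjusted p = 0.284 and 0.0526). The second was called by edgeR (TMM, -2.62, adjusted p = 0.0393) and DESeq2 (-2.64, adjusted p = 0.00422), and by limma without steady-state library 4 (-2.94, adjusted p = 0.0191).

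The same order held in the hippocampus and at birth, without a call. In the hippocampus at steady state H2-Ob was at 30.7, 94.1 and 89.9 without Dicer and at 187 and 106 in controls, a change of -1.13 ± 0.70. After LPS it was at 9.72 and 12.8 against 36.7 and 53.3, a change of -1.90 ± 0.76 (limma, adjusted p = 0.493). Newborn Dicer-deficient libraries held 5.2 and 4.68, from 2 and 4 reads, against 20.4, 14.9 and 11.4 in their 3 controls, a change of -1.45 ± 0.50 (limma, adjusted p = 0.161). The Dicer-deficient and control libraries did not overlap in any of the 6 settings. Of 10226 genes tested in all 6, 26 (0.254%) were lower without overlap in every one. Non-overlap in 1 setting is common where groups are small: 13.7% of genes were lower without overlap in the hippocampus at steady state, 22% after LPS and 20.6% at birth. Cd22, one of the B cell markers, moved with H2-Ob: it was at 27 to 41.7 without Dicer and at 188 to 282 in controls of the adult table, while Ms4a1 was at 0 in both. Its part in the H2-Ob result was not tested.

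H2-Oa, the alpha chain of H2-DO, did not follow. In the adult table it was at 601, 425 and 496 without Dicer and at 663, 510.4, 376 and 390.3 in controls, a change of 0.09 ± 0.21 that was not called. Its log2 fold change was above 0 in all 6 Dicer settings, at most 0.99 ± 0.39 in the hippocampus after LPS, and was called in none. Its LPS changes were -0.47 ± 0.27 in controls and 0.04 ± 0.27 without Dicer in total brain and -0.96 ± 0.39 and -0.38 ± 0.36 in the hippocampus, none called. In the Dicer comparison of total brain after LPS it was 0.70 ± 0.25 (limma, adjusted p = 0.0861), and DESeq2 on recovered reads gave 0.80 with an adjusted p of 0.0307. The antisense gene BC051537 overlaps its exons, and the strand setting of the counting is not given in the sources used here, so reads of the pair cannot be told apart.

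The ratio of H2-Oa to H2-Ob within a library, chosen after the values were seen and given without a test, set the genotypes apart in every setting. It was 5.94 to 7.48 without Dicer and 0.96 to 1.44 in controls of the adult table. In total brain it was 12.7 to 15.1 against 2.11 to 3.31 at steady state, and 7.67 to 48.3 against 1.68 to 7.16 after LPS. The hippocampus gave 6.41 to 10.03 against 1.99 to 3.43 at steady state and 28.3 to 40.1 against 3.79 to 4.78 after LPS. At birth it was 7.25 and 34 against 2.75 to 3.86 over all 5 controls. A ratio of this kind shows unequal change of the pair, not which gene moved.

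**Figure D2:**
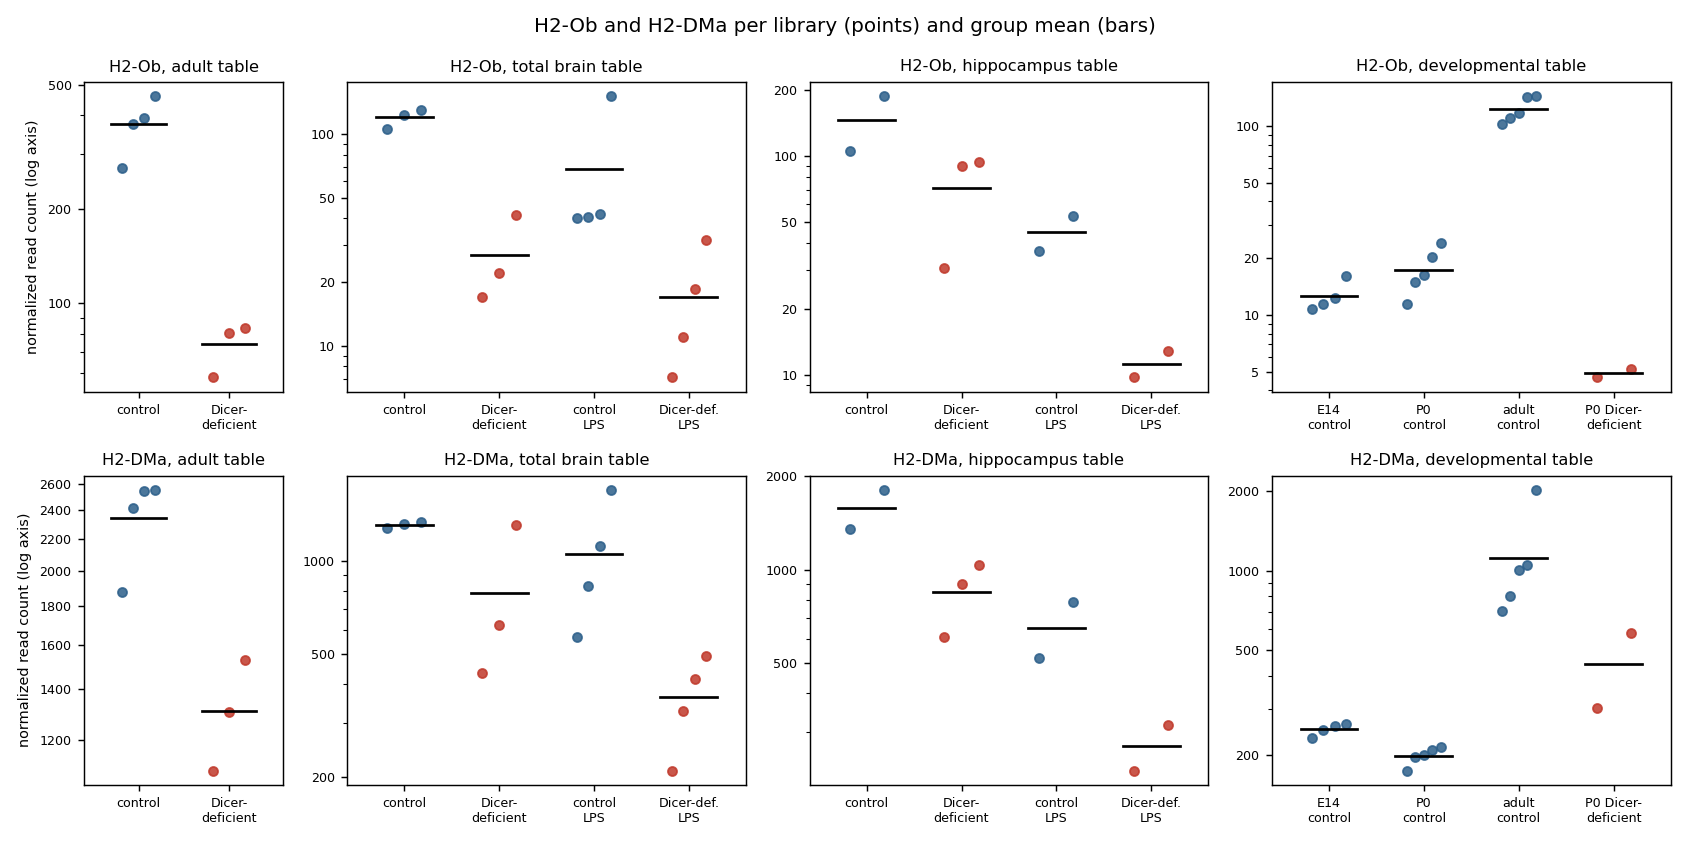
Normalized read counts (log axis) of H2-Ob (upper row) and H2-DMa (lower row) in each library of the 4 tables, with group means as bars and red for Dicer-deficient groups. H2-Ob did not overlap between the genotypes in any setting, and the group means of H2-DMa were lower without Dicer except at birth, where 302 and 582 lay above the 174 to 215 of the controls.

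H2-DMa, the alpha chain of the peptide editor H2-DM, was also lower without Dicer in the adult tables. It was at 1526, 1305 and 1094 in adult Dicer-deficient libraries and at 2544, 2556, 1874 and 2419 in controls. The groups did not overlap, and H2-DMa fell by 0.85 ± 0.16 (limma, adjusted p = 0.00447), a call that held without each of the 7 libraries. In total brain after LPS it was at 210.2, 329, 494 and 416 without Dicer and at 567.5, 832, 1119.5 and 1696 in controls. The change of -1.49 ± 0.34 (limma, adjusted p = 0.0111) held in all 8 refits that left out 1 library. At steady state in total brain, Dicer-deficient library 11b (1307) lay among the controls (1274 to 1337) while the others were at 435 and 619.6, and the change of -0.89 ± 0.39 was not called. In the hippocampus the changes were -0.92 ± 0.30 at steady state (898, 607 and 1040.3 against 1814 and 1358) and -1.25 ± 0.32 after LPS (225 and 316 against 518 and 785). Neither was called by limma (adjusted p = 0.264 and 0.179), while DESeq2 called the second (-1.22, adjusted p = 0.0213).

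LPS lowered H2-DMa in 3 of 4 settings. The changes were -1.30 ± 0.32 in hippocampal controls and -1.63 ± 0.30 in hippocampal Dicer-deficient microglia (limma, adjusted p = 0.0369 and 0.005). In total brain it fell by 1.03 ± 0.37 without Dicer (limma, adjusted p = 0.0473), a call lost in 5 of 7 refits without 1 library, and changed by -0.43 ± 0.37 in controls, which was not called. Exons of Brd2 overlap H2-DMa on the opposite strand, and their reads cannot be told apart here. Brd2 itself was at 525 to 547 without Dicer and 421 to 483 in controls of the adult table, and at 367.5 to 500.9 and 389.6 to 526.9 in total brain after LPS.

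H2-DMb1, the beta chain of H2-DM, did not differ by genotype in any call. In the adult table it was at 1109, 923 and 876 without Dicer and at 1143, 825, 908 and 883 in controls, a change of 0.05 ± 0.16. LPS lowered it in every setting. In total brain controls it went from 512, 468 and 453 to 174, 210.1, 174 and 460.5, a change of -1.03 ± 0.30 (limma, adjusted p = 0.0277). The value of 460.5 is library 33, without which the change was -1.36, while leaving out any of the other 6 libraries ended the call. In Dicer-deficient total brain microglia it went from 320.1, 647 and 319.8 to 182, 223, 208 and 193, a change of -1.01 ± 0.30 (limma, adjusted p = 0.0185). The 647 is library 11b, without which the change was -0.67 and not called. In the hippocampus the changes were -1.43 ± 0.27 in controls (483 and 554 to 175 and 209) and -1.18 ± 0.25 without Dicer (450.3, 463 and 437 to 192 and 205; limma, adjusted p = 0.00947 and 0.0117). The first call was lost in 2 of 4 and the second in 2 of 5 refits without 1 library. H2-DMb1 and H2-DMb2 transcripts were 95.7% identical over 1081 aligned bases, so reads could be shared between them. H2-DMb2 was at most 3.45 in the 3 tables that list it. Within a library the ratio of H2-DMa to H2-DMb1, chosen after the values were seen, was 1.25 to 1.41 in adult Dicer-deficient and 2.07 to 3.10 in control libraries.

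Cd74, the invariant chain, was the gene of the 10 most raised by LPS in total brain. It was at 114, 97.6 and 68.9 in steady-state controls and at 247, 438, 516 and 186 in controls after LPS, with no overlap, as for 9.94% of genes in this direction. This rise of 1.79 ± 0.29 (limma, adjusted p = 0.00199) stood beside the fall of H2-DMb1 as the calls among the 10 genes, where 7.05% of 13423 genes were called higher and 7.08% lower. Library 33, with the value of 186, lowered it: without that library the change was 2.05, and 4 genes were called, with H2-Ob and Cd86 added, while calls over all genes went from 1897 to 3388 of 13288. Without Dicer, Cd74 went from 215, 174 and 188 to 1138, 1474, 1575 and 1945, a rise of 2.97 ± 0.29 (limma, adjusted p = 4.25e-06). In that comparison 4 of 10 genes were called, Cd74 and Cd86 higher and H2-DMa and H2-DMb1 lower, beside 12.2% of genes higher and 12.8% lower. Without Dicer-deficient library 11b, 1 of the 10 was called (Cd74).

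After LPS the 4 Dicer-deficient total brain libraries had more Cd74 than all 4 controls, a difference of 2.23 ± 0.27 (limma, adjusted p = 8.79e-05) that held in all 8 refits. Cd74, H2-DMa and H2-Ob were the 3 genes called in that comparison, where 3.93% of 12937 genes were called higher and 5.46% lower, and 6.25% were higher with no overlap. Without control library 33, Cd74 was 1.98 higher and H2-Ab1 joined the calls (1.26; limma, adjusted p = 0.0359). At steady state the genotypes did not overlap either (174 to 215 against 68.9 to 114), as for 9.15% of genes in this direction, but the change of 1.05 ± 0.31 was not called by limma (adjusted p = 0.0922). DESeq2 gave 1.11 with an adjusted p of 0.0335. The LPS response of Cd74 was larger without Dicer by 1.18 ± 0.41, an interaction that was not called (limma, adjusted p = 0.313). None of the 10 genes was called in the total brain interaction by limma, edgeR or DESeq2, where limma called 0.171% of all genes. At an unadjusted p under 0.05 limma had 1, Cd74, and the share of all genes at that threshold was not counted.

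The summed markers of monocytes and neutrophils also varied over these libraries. The sum was 10.4 to 39.4 in steady-state controls and 183 to 3658 in controls after LPS, and it was 23.3 to 371 and 823 to 3782 without Dicer. Control library 33 had the largest sum of the controls (3658) and the lowest Cd74 after LPS. Border macrophage sums after LPS were 18.4 to 37.1 without Dicer and 38.7 to 52.2 in controls. Ccr7, a chemokine receptor of migrating dendritic cells, was at 25.4 to 53 and at 2 to 11.4, and it was the 1 of 6 tested dendritic cell markers called higher without Dicer after LPS (limma). The part of any of these cells in the Cd74 result was not tested.

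In the other adult settings the change of Cd74 was above 0 and not called. In the adult table it was at 731, 236 and 936 against 391, 319, 548 and 406, a change of 0.41 ± 0.34 with the lowest value in Dicer-deficient library 2. In the hippocampus it was at 475, 663 and 646 against 193 and 427 at steady state, and at 652 and 1504 against 279 and 474 after LPS. These differences of 1.03 ± 0.41 and 1.44 ± 0.45 had limma adjusted p of 0.395 and 0.307. The hippocampal LPS changes, 0.34 ± 0.45 in controls and 0.75 ± 0.41 without Dicer, were not called. No test compares them with those of total brain.

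**Figure D3:**
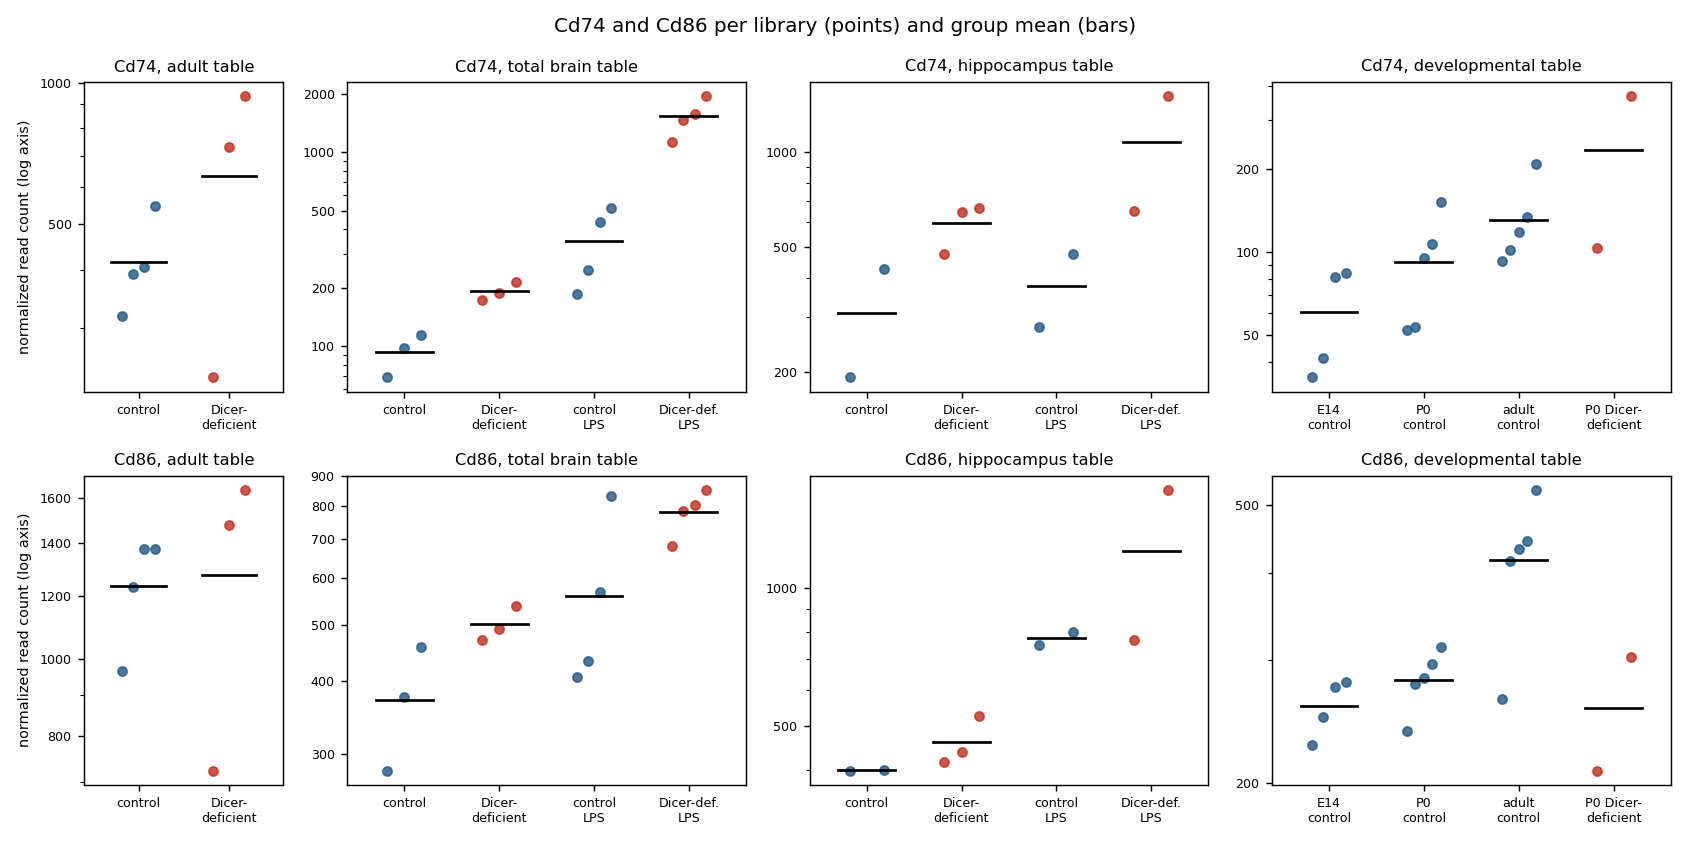
Normalized read counts (log axis) of Cd74 (upper row) and Cd86 (lower row) in each library of the 4 tables, with group means as bars and red for Dicer-deficient groups. In total brain after LPS, Cd74 sat between 1138 and 1945 without Dicer and between 186 and 516 in controls.

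None of the peptide-binding chains H2-Aa, H2-Ab1 and H2-Eb1 was called in any of the 6 Dicer comparisons by limma with all libraries. In the adult table they varied together from library to library. H2-Aa was at 1189, 84.9 and 1372 without Dicer and at 519.7, 303, 521 and 339 in controls. H2-Ab1 was at 676, 57.9 and 422 against 317, 235, 494 and 262. H2-Eb1 was at 529, 54.1 and 635 against 139, 171, 301 and 231. Dicer-deficient library 2 was the lowest of all 7 for each chain, and libraries 1 and 3 the highest for H2-Aa and H2-Eb1. The changes of 0.34 ± 0.62, -0.29 ± 0.54 and 0.39 ± 0.57 were not called. Without library 2, H2-Aa (1.64) and H2-Eb1 (1.52) were called higher, as was Cd74 (1.02), so that 5 of the 10 genes were called, beside 634 of 10897 genes in that refit and 569 of 11045 with all libraries. Library 2 also had the lowest sum of border macrophage markers of the 3, at 46.3 against 168 and 292, and the lowest of monocyte and neutrophil markers, at 34.8 against 179 and 524. Their part in the spread was not tested.

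In total brain none of the 3 chains was called in any comparison by limma. H2-Aa was at 276, 70.6 and 50.5 in steady-state controls, 61.9, 75.2, 124 and 208 in controls after LPS, 164, 126 and 101 without Dicer, and 81.5, 120.3, 199 and 305 without Dicer after LPS. All 4 groups overlapped. H2-Ab1 was at 139.8, 231, 347 and 491 in Dicer-deficient libraries after LPS, against 178, 92.8 and 139 at steady state, a change of 1.04 ± 0.40 (limma, adjusted p = 0.0665). edgeR's quasi-likelihood test gave 1.20 with an adjusted p of 0.0324, and DESeq2 1.19 with 0.017. H2-Eb1 ran from 28.9 to 112 over the 14 libraries, with changes between -0.64 and 0.45.

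In the hippocampus all 3 chains were far lower after LPS. In controls H2-Aa went from 409 and 1248 to 103 and 62.2, a change of -3.14 ± 0.76 (limma, adjusted p = 0.0318). H2-Ab1 went from 543 and 1100.4 to 91.4 and 69.2 and changed by -3.27 ± 0.45 (limma, adjusted p = 0.0013). H2-Eb1 went from 208 and 329.5 to 13.9 and 19 and changed by -3.93 ± 0.52 (limma, adjusted p = 0.00107). With H2-DMa and H2-DMb1, 5 of 10 genes were called lower and 0 higher, where 2.89% of 12366 genes were called lower and 2.35% higher. The median change of the 10 genes was -1.36, and that of all genes 0. With 2 libraries a group, leaving out any 1 ended the calls of H2-Aa and H2-DMa, while H2-Ab1 and H2-Eb1 were called in each refit. Such a refit leaves a lone library whose spread is taken from the other groups, so it is no replicate check. Fitted on these 4 libraries alone, none was called.

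Without Dicer the 3 chains were also called lower after LPS. H2-Aa went from 1078, 1119 and 1494 to 18 and 148, H2-Ab1 from 1078, 1218 and 1018 to 172 and 482, and H2-Eb1 from 582, 513 and 416 to 22.2 and 59.2. The changes were -4.51 ± 0.69, -1.93 ± 0.41 and -3.74 ± 0.47 (limma, adjusted p = 0.0018, 0.0122 and 0.000498). In all, 5 genes were called lower and Cd86 higher, beside 4.61% and 3.87% of all genes. None of the 10 was called in the interaction of LPS and genotype by limma, edgeR or DESeq2, where limma called 0.0162% of all genes. At an unadjusted p under 0.05 it had 1, H2-Ab1 (1.33 ± 0.61), and the share of all genes at that threshold was not counted. Without Dicer-deficient library 18 after LPS, 2 of the genes were called, H2-Aa and H2-Eb1.

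Border macrophage markers were low in the same libraries, with 2 of 10 called lower after LPS in controls and 4 of 10 without Dicer (limma). Of all genes, 2.89% and 4.61% were called lower in these comparisons. In the hippocampus their sum was 317 and 492 in steady-state controls and 58.7 and 59.7 after LPS, and 320 to 479.6 and 13.9 to 30.9 without Dicer. Mrc1 went from 65.8 and 167 to between 0 and 12.1 in controls, and Cd163 was at 0 in all 4 libraries after LPS. The steady-state Dicer-deficient libraries also held monocyte and neutrophil markers at 7312 to 7421, against 500.5 and 2453 in controls. After LPS these sums were 305 and 605 without Dicer, with 5 of 11 tested markers called lower (limma). In controls they were 1223 and 52, with 0 called. Microglia markers summed to 74950 to 86521 at steady state and 41409.5 to 50869 after LPS over both genotypes. Of these 10 markers, 6 were called lower after LPS in controls and 7 without Dicer (limma), the same counts as in total brain. In total brain, where no chain was called with LPS, border macrophage sums were 7.7 to 48.3 at steady state and 18.4 to 52.2 after LPS. The part of these cells in the hippocampal result was not tested.

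**Figure D4:**
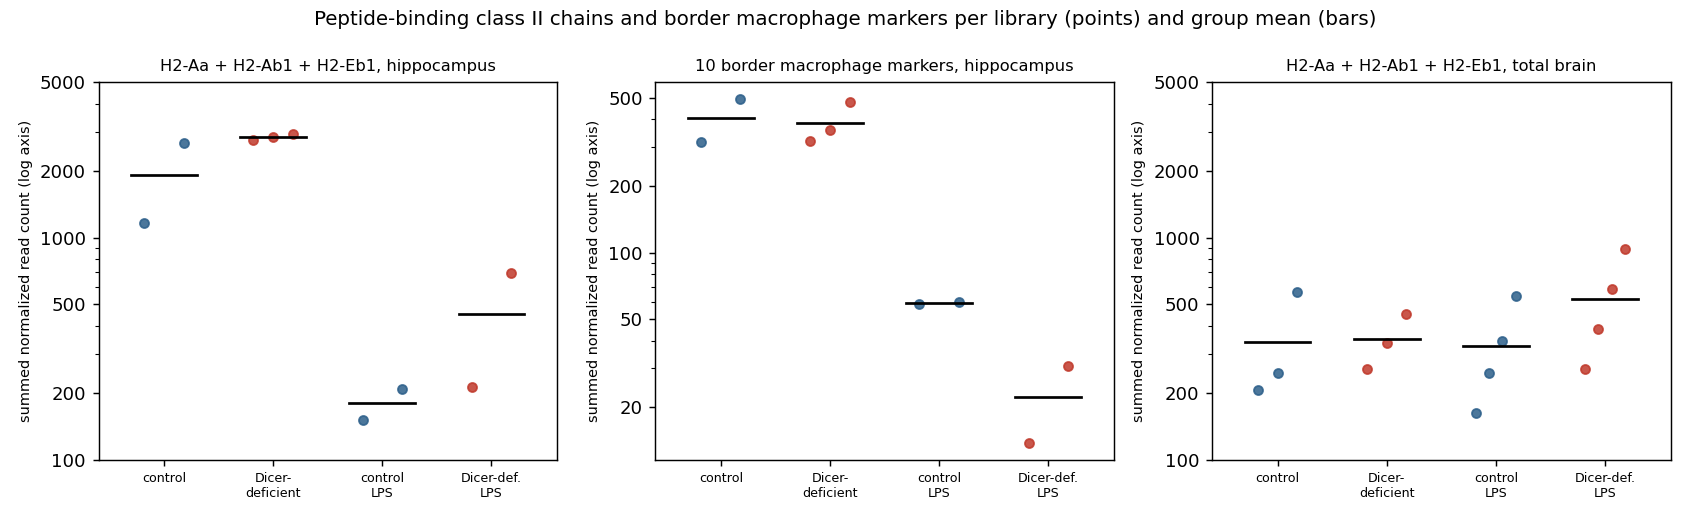
Summed normalized read counts (log axes) of H2-Aa, H2-Ab1 and H2-Eb1 in the hippocampus (left) and total brain (right), and of 10 border macrophage markers in the hippocampus (middle), per library with group means as bars. In the hippocampus the chains summed to 1159 to 2928 at steady state and 150.4 to 689.5 after LPS, and the markers were low in the same libraries.

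Genotype alone gave no call in the hippocampus by limma, at steady state or after LPS, where 0.17% and 0.307% of genes were called. The steady-state count was also 0 by edgeR and DESeq2. The comparisons of a table share libraries, so their values are not independent. At an unadjusted p under 0.05 there were 2 genes at steady state, H2-DMa and Cd74, and 5 after LPS. The share of all genes at that threshold was not counted, so these numbers cannot be set against a background. After LPS H2-Ab1 was at 172 and 482 without Dicer and 91.4 and 69.2 in controls, 1.85 ± 0.45 higher (limma, adjusted p = 0.149). edgeR gave 2.06 with an adjusted p of 0.0482, and DESeq2 2.08 with 0.000452 and calls for Cd74 and H2-DMa besides.

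Regions sit in tables scaled apart and were not tested against each other. Per 1000000 recovered reads, steady-state control microglia held H2-Aa at 158 and 477 in the hippocampus and at 19.6 to 108 in total brain, and H2-Eb1 at 80.1 and 126 against 14.7 to 31.7. Without Dicer H2-Aa was at 414 to 566 in the hippocampus and 39.5 to 65.5 in total brain. H2-Ob, at 40.4 and 72.2 in the hippocampus and 41.3 to 50 in total brain controls, overlapped between the regions. After LPS H2-Aa in controls was at 25.2 and 43.1 in the hippocampus and 25.4 to 83.7 in total brain.

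Ciita and Cd86 complete the set. Ciita had 0 to 9 reads in every library of the study, and in total brain controls after LPS it had 0 reads in all 4. Those depths cannot show a difference, and no comparison called it. Cd86 was at 281, 458 and 376 in steady-state total brain controls and at 433, 831, 569 and 407 after LPS, 0.56 ± 0.22 higher and not called (limma, adjusted p = 0.105). Without Dicer it went from 470.5, 492 and 539 to 683, 801, 783 and 852, a rise of 0.64 ± 0.22 (limma, adjusted p = 0.0454) that was lost in 6 of 7 refits. In the hippocampus it was at 399 and 399.9 in controls and 802 and 751 after LPS, 0.96 ± 0.32 higher and not called. Without Dicer it went from 438, 525 and 417 to 1638 and 768 and rose by 1.29 ± 0.29 (limma, adjusted p = 0.0174), a call lost without library 18 after LPS or steady-state library 6. Genotype changed Cd86 by no call, with 1477, 1637 and 723 against 1376, 1380, 967 and 1233 in the adult table.

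Most of the 10 genes rose between birth and adulthood. From P0 to adult, 8 of 10 genes were called higher and 0 lower, where 19.2% of 13447 genes were called higher and 24% lower. Their median log2 fold change was 1.92, against -0.08 over all genes. The 8 calls stayed in each of the 10 refits that left out 1 library. H2-Aa and H2-Eb1 had the largest changes. H2-Aa went from 8.72, 4.98, 14.4, 34.2 and 0 to 153, 81.6, 52.6, 109 and 199.6, a change of 3.77 ± 0.76 (limma, adjusted p = 0.000376). H2-Eb1 rose by 3.45 ± 0.77, from between 0 and 17.1 to between 24.2 and 95.7. H2-Ab1 rose by 1.84 ± 0.54, with overlap, since P0 library 4 held 70.2 and adult library 2 held 33.3.

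The genes of the editor and of its inhibitor all rose. H2-DMa was at 201, 174, 209, 215 and 196 at P0 and at 1007, 2033, 702, 804 and 1048 in adults, 2.38 ± 0.22 higher (limma, adjusted p = 1.38e-08). H2-DMb1 was at 66.9 to 127 and then at 327 to 496, 2.01 ± 0.16 higher (limma, adjusted p = 2.45e-09). H2-Ob was at 20.4, 14.9, 11.4, 24.2 and 16.3 at P0 and at 103, 144, 118, 111 and 143 in adults, 2.79 ± 0.23 higher (limma, adjusted p = 2.99e-09). H2-Oa went from between 41.1 and 67.3 to between 146 and 275, 1.79 ± 0.29 higher (limma, adjusted p = 3.6e-05). None of these 4 genes overlapped between P0 and adult, nor did H2-Aa and H2-Eb1, and 14.4% of genes were higher with no overlap. Cd86 rose by 0.54 ± 0.16, with overlap, and Cd74 was at 52.3 to 152 at P0 and 93 to 209 in adults, 0.56 ± 0.34 and not called.

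Between E14 and P0 the chains went the other way. H2-Aa was at 102, 84.3, 22.8 and 47.2 at E14 and fell by 2.82 ± 0.81 to its P0 values (limma, adjusted p = 0.0151). H2-Eb1, at 53, 55.1, 15.2 and 22.4 at E14, fell by 2.80 ± 0.82 (limma, adjusted p = 0.0179). Both calls were lost without E14 library 1 or 2, which held the most of these chains. The call of H2-Eb1 was also lost without P0 library 5 and with DESeq2. H2-DMb1 rose by 0.75 ± 0.17, from between 54.1 and 61.4 (limma, adjusted p = 0.00355). H2-Ab1 (-1.33 ± 0.57), H2-DMa (-0.33 ± 0.23), H2-Oa (0.19 ± 0.31), H2-Ob (0.41 ± 0.24), Cd74 (0.58 ± 0.36) and Cd86 (0.13 ± 0.17) were not called. H2-Aa, H2-Eb1 and H2-DMb1 were the 3 calls, where 8.29% of 13824 genes were called higher and 14.4% lower. From E14 to adult 6 genes were higher, by 2.76 ± 0.17 for H2-DMb1, 3.20 ± 0.24 for H2-Ob, 2.05 ± 0.23 for H2-DMa, 1.98 ± 0.31 for H2-Oa, 1.14 ± 0.36 for Cd74 and 0.66 ± 0.17 for Cd86, where 20.4% of genes were called higher and 30.8% lower. The call of Cd74 was lost without E14 library 3. The chains H2-Aa, H2-Ab1 and H2-Eb1 were not called in that comparison. E14 cells were sorted by another gate (above), and border macrophage markers summed to 499 to 772 at E14, 807 to 1111 at P0 and 24.6 to 90.4 in adults, lowest where the chains were highest. Other sums were higher in adults than at P0. Dendritic cell markers went from between 241 and 343 to between 839 and 1023, mostly through Fscn1 (75.9 to 165.7 at P0, 663 to 837 in adults). Of 7 tested dendritic cell markers 1 was called higher and 2 lower (limma), with a median log2 fold change of -0.72. Over all genes 19.2% were called higher and 24% lower. B cell markers went from between 27.1 and 42.9 to between 47.7 and 104, mostly Cd22 (24.8 to 42.3, then 44.7 to 102). Microglia markers went from between 28536 and 38826 to between 53756 and 66405 (7 of 10 called higher, limma). Their part in the rise of the 10 genes was not tested. Monocyte and neutrophil markers were at 35.6 to 1337 in adults, the largest in library 1.

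**Figure D5:**
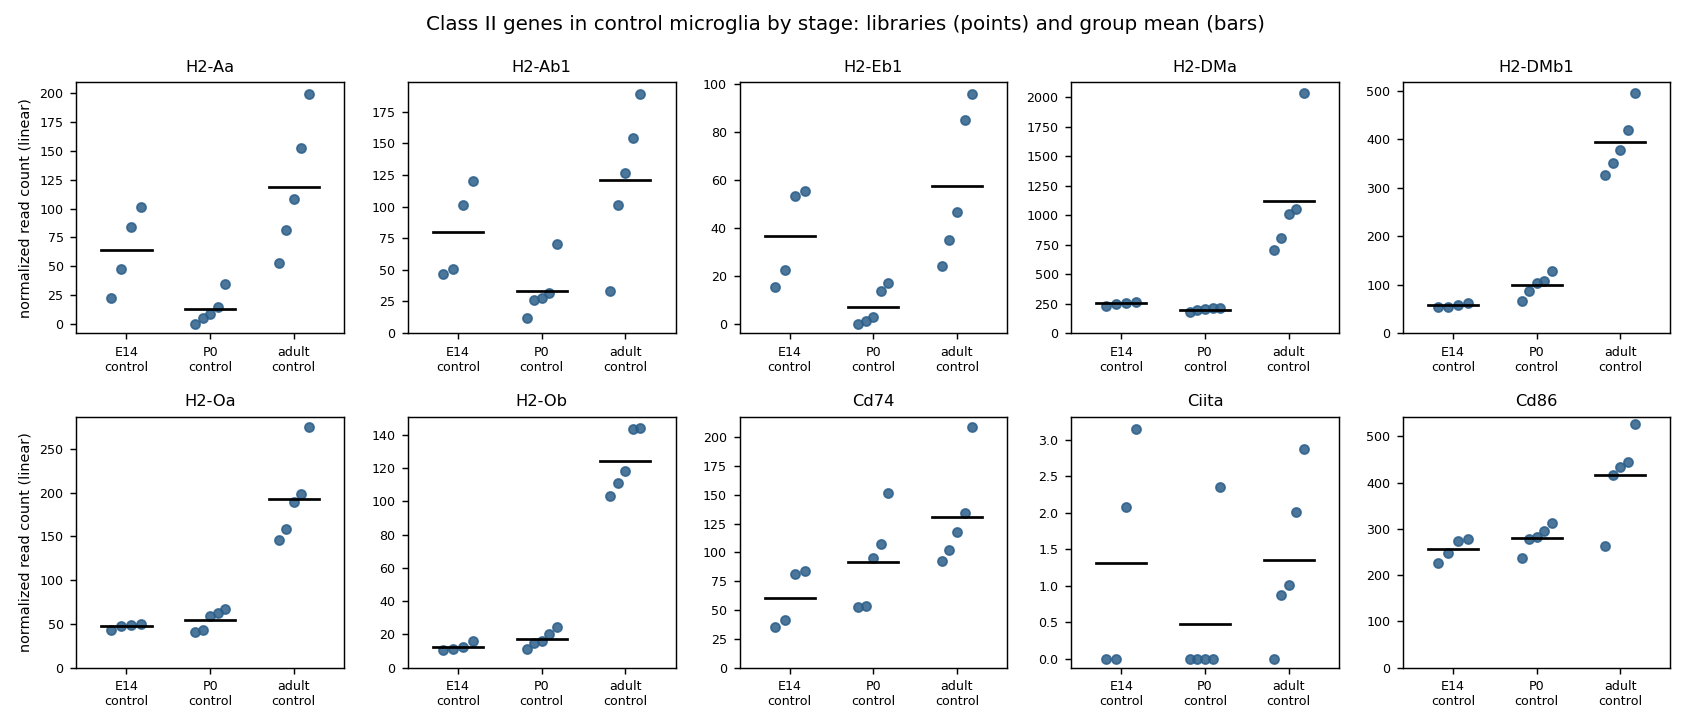
Normalized read counts (linear axes, from or just below 0) of each of the 10 genes in control microglia at E14, P0 and adulthood, with points in order of value and group means as bars. H2-DMa, H2-DMb1, H2-Oa and H2-Ob were higher in every adult library than in any younger one, while H2-Aa, H2-Ab1 and H2-Eb1 had their lowest means at P0.

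At birth Dicer deficiency gave no call among 9 tested genes (Ciita was under the filter), where limma called 1.48% of 13064 genes. At an unadjusted p under 0.05 limma had 3, H2-DMa, H2-Ob and Cd74, and the share of all genes at that threshold was not counted. H2-DMa was at 582 and 302 without Dicer against 201, 174 and 209, 1.11 ± 0.32 higher (limma, adjusted p = 0.11), with no overlap, as for 17.3% of genes in this direction. Its sign was opposite to the adult tables, a contrast between tables that was not tested. Cd74 was at 367 and 103 against 52.3, 53.5 and 107, 1.52 ± 0.52 higher (limma, adjusted p = 0.153), and DESeq2 called both genes (adjusted p = 0.021 for H2-DMa and 0.0183 for Cd74). The 2 Dicer-deficient libraries differed: library 1 held H2-Aa at 93.6, H2-Ab1 at 185 and H2-Eb1 at 62.4, and library 2 held 3.51, 15.2 and 1.17. Without library 2, 7 genes were called, H2-Ob lower and the other 6 higher, with the lone library assumed to vary like the controls. That refit called 4716 of 12672 genes, against 194 of 13064 with both libraries. Border macrophage markers summed to 886 and 1403 against 936 to 1111 in the 3 controls, and dendritic cell markers to 109 and 119 against 241 to 343. Their part was not tested.

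Other genes of the pathway were read from a list of 22 and upstream regulators of Ciita from a list of 17. Of the pathway list, Ifi30, the lysosomal thiol reductase that opens disulfide bonds of antigens, was higher without Dicer in all 6 settings. It rose by 2.39 ± 0.16 in the adult table, 2.49 ± 0.30 and 1.92 ± 0.26 in total brain, 2.37 ± 0.26 and 1.71 ± 0.29 in the hippocampus and 2.23 ± 0.37 at birth (limma, largest adjusted p = 0.0242). Ctsl, a cathepsin that trims the invariant chain, rose by 1.23 ± 0.18 in the adult table, by 1.35 ± 0.29 and 0.87 ± 0.25 in total brain and by 1.23 ± 0.21 in the hippocampus at steady state. These were the 2 of 19 tested pathway genes called in the adult table, and 0 were lower, where 3.15% of all genes were called higher and 2% lower. In total brain after LPS 6 of 20 were higher without Dicer and 0 lower, where 3.93% of all genes were called higher and 5.46% lower. Among the 6 was Cd40, the receptor for T cell help, by 3.09 ± 0.59.

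LPS raised Cd40 by 3.25 ± 0.64 and Cd274, the inhibitory ligand PD-L1, by 2.09 ± 0.55 in total brain controls, and by 6.55 ± 0.64 and 4.61 ± 0.55 without Dicer. Lgmn, an endosomal protease, changed by -1.10 ± 0.25 without Dicer. In hippocampal controls LPS lowered Ctsd (-1.23 ± 0.24) and Lgmn (-0.98 ± 0.20) and raised Ifi30 and Ctsl. So 2 pathway genes were higher and 2 lower of 19, where 2.35% of all genes were called higher and 2.89% lower. From P0 to adult 9 of 19 pathway genes were higher and 2 lower, where 19.2% of all genes were called higher and 24% lower. Icosl (1.11 ± 0.18), March1, a ligase that removes class II from the surface (1.27 ± 0.21), and Rfxank, a subunit of the RFX complex (0.83 ± 0.17), rose. Ctsb and Ctsl fell, by 1.45 ± 0.23 and 0.88 ± 0.22.

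Among the regulators upstream of Ciita, 9 of 15 tested were higher in adults than at P0 and 0 lower. Over all genes 19.2% were called higher and 24% lower. The 9 were led by Il10ra (1.25 ± 0.14), Irf4 (2.69 ± 0.36) and Irf8 (0.72 ± 0.14). In the adult Dicer comparison Ifngr2, a chain of the interferon gamma receptor, rose by 0.72 ± 0.15, and Myc and Prdm1 fell by 1.47 ± 0.28 and 1.26 ± 0.36. In total brain after LPS Ifngr2 and Jak1 rose without Dicer, by 1.09 ± 0.15 and 0.72 ± 0.16, and Irf8 fell by 0.93 ± 0.20. LPS itself lowered Irf8 by 0.80 ± 0.22 and Tgfb1 by 1.14 ± 0.26 and raised Myc by 2.02 ± 0.44 and Ifngr1 by 0.89 ± 0.23 in total brain controls. No pathway or upstream gene was called in either interaction by limma.

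As a description of how the genes vary within groups, group means were subtracted and each gene was set against the mean of H2-Aa, H2-Ab1, H2-Eb1 and Cd74, of which those 4 are themselves part. In total brain (14 libraries) Pearson's r was 0.92 for H2-Aa, 0.96 for H2-Ab1, 0.88 for H2-Eb1 and 0.46 for Cd74. It was 0.34 for H2-DMa, 0.30 for H2-Oa, 0.16 for H2-DMb1, -0.01 for H2-Ob and -0.09 for Cd86. In the developmental table (16 libraries) the 4 genes of the mean had 0.96, 0.94, 0.98 and 0.63 in the same order. There it was 0.32 for H2-DMa, 0.57 for H2-Oa, 0.11 for H2-DMb1, 0.05 for H2-Ob and -0.25 for Cd86. The genes nearest to this mean were Slc25a16 (0.88), Mapk6, Crlf3, Rsrc1 and Rad50 in total brain, of 9806 genes, and Dedd2 (0.90), Tmem128, Plcl1, Ypel2 and Capn10 in the developmental table, of 9899. No gene stood in both lists, and all genes of a library share its depth.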

How the data were processed

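Per the submitters' processing notes, bcl2fastq, HISAT 0.1.5, SAMtools, HOMER and DESeq2 were used with the genome build mm9, and RNA was captured by oligo(dT) per the labels' protocols. The annotation, strand setting and use of molecular identifiers are not given in the sources used here. The deposited signal values are counts of reads on each gene, scaled by the authors with 1 factor for each library. Dividing by that factor gave whole reads for at least 99.9% of values above 0 (within 0.1 read), and 7 libraries list no gene at 1 read. The recovered totals give the depth, which sets how precise a low gene can be.

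Samples were grouped by their titles. Because the values were normalized, limma 3.58.1 in R 4.3.3 was the test in place of edgeR, which had been planned for counts. Its input was log2(value + 1), with 1 mean per group in each table and moderation by an intensity trend. Genes at 1 or more in as many libraries of the table as the smallest group compared were tested. The newborn comparison used its 2 Dicer-deficient libraries and the 3 controls whose labels place them with these. An interaction is the LPS change without Dicer minus that in controls. The procedure was tested on simulated data: in the adult comparison the test called 74% of the genes given a 4-fold change and 13.4% of the 2-fold ones. These shares were 67.7% and 8% in the newborn comparison, 68% and 10% in the hippocampus Dicer comparison at steady state, and 38.1% and 3.06% in the total brain interaction. The simulation gave every gene the same dispersion. The shares therefore do not carry over to genes that vary more between libraries, such as H2-Aa. Alternatives were pseudocounts of 0.1 and 5, no filter, only the groups compared, edgeR 4.0.16 (TMM and RLE) and DESeq2 1.42.0 on recovered reads, the replicate number as a block and each library left out.

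The 10 genes, the lists (other pathway genes, upstream of Ciita, and markers of dendritic cells, B cells, border macrophages, monocytes and neutrophils, and microglia) and the rules were chosen with earlier results of these data known. By rule all 10 genes belong to each comparison, and the heat map shows every tested change, while the text leaves out some that were not called. Of the pathway and upstream lists, up to 3 called genes in each direction with the smallest p are named, and only part of these. Brd2, BC051537, H2-DMb2, Cd22 and the marker genes were named after their values were seen. GENCODE vM21 gave exon overlaps. Promoter sequences are from RefSeq GRCm38.p6, a build other than that of the counts, and the deposited tables hold no positions.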

Additional observations from a re-analysis of the deposited data

Results flagged for a closer look

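The 10 genes in the 6 groups of 4 or 5 libraries made 60 sets of values, and in 5 of them 1 library lay far from the rest, where chance gives about 1 in 20. In control library 33 of total brain after LPS, H2-DMb1 was 460.5 against 173.5 to 210.1 in the other 3, and H2-Ob was 150.5 against 40.2 to 41.9. The same library had Cd74 at 186, the lowest of its group, Cx3cr1 at 6058 against 1801 to 2875, and microglia markers at 80948, near the steady-state sums. H2-Eb1 was 95.7 in Dicer-deficient library 38 after LPS against 36.1 to 38.1. H2-DMa was 2033 in adult control library 2 of the developmental table against 702 to 1048. Ciita was 2.36, from 4 reads, in P0 library 4 and 0 in the other 4.

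H2-DMa had opposite signs without Dicer at birth and in 4 adult settings, with every Dicer-deficient library on one side of its controls in these 5. Its log2 fold change was 1.11 at birth and -0.85 in the adult table, -1.49 in total brain after LPS, and -0.92 and -1.25 in the hippocampus at steady state and after LPS. In total brain at steady state it was -0.89, and the groups overlapped. The tables were scaled apart, so this difference between settings was not tested. At birth the Dicer-deficient mice carried Cx3cr1Cre and the controls no Cre, while both genotypes of the adult settings carried Cx3cr1CreER.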

How the results depend on the processing

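Counts are of the 10 genes called. Calls over all genes also move with the setting, so a changed count is not particular to these 10. In total brain, the LPS effect in controls called 1 with edgeR (TMM and RLE) and 0 when fitted on only the groups compared, in place of 2. Over all 13423 genes the calls were 1652, 1637 and 2 in these fits, in place of 1897. The LPS effect without Dicer called 2 with no filter in place of 4. The Dicer effect at steady state called 0 with a pseudocount of 0.1, no filter, only the groups compared or edgeR (TMM and RLE) and 2 with DESeq2, in place of 1, and after LPS 5 with DESeq2 in place of 3. In the hippocampus, the LPS effect in controls called 3 with a pseudocount of 0.1 and 0 with only the groups compared in place of 5, and without Dicer 2 with only the groups compared in place of 6. The Dicer effect there after LPS called 1 with edgeR (TMM and RLE) and 3 with DESeq2 in place of 0. P0 against E14 called 5 with only the groups compared in place of 3. At birth the count was 1 with edgeR RLE, 2 with DESeq2 and 1 with the replicate block (Cd74, 1.86), in place of 0. The replicate numbers did not pair the libraries by the rule used: same-numbered deviations correlated at -0.01 to 0.02 in the adult table and 0.12 and 0.16 in 2 newborn pairs. The block changed no other count. Leaving out 1 library gave 2 to 5 genes in the adult comparison, beside 344 to 634 of all genes. In total brain it gave 1 to 4 for LPS in controls (872 to 3388 of all genes) and 1 to 4 for LPS without Dicer (2351 to 3466). For Dicer it gave 0 to 1 at steady state (89 to 216) and 2 to 5 after LPS (725 to 1184). It gave 2 to 3 for LPS in hippocampal controls, 2 to 7 without Dicer, 1 to 4 for P0 against E14, 8 for adult against P0, 5 to 6 for adult against E14 and 0 to 7 at birth. For single genes, 2009 alternative values kept their side of the threshold, 73 lost and 40 gained a call, and none reversed a call. Direction was compared only where a call was made, so uncalled values may have changed sign. Depth limits Ciita and newborn H2-Ob. Fits on 4 libraries leave little to estimate a spread from.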
